A study of Mus musculus with 5 samples.

Results

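The clustered histone genes are the genes of the mouse Hist1, Hist2, Hist3 and Hist4 loci, which encode the linker histone H1 and the core histones H2A, H2B, H3 and H4. They were chosen by symbol alone: 62 of the 56324 gene rows carried a symbol beginning with Hist1h, Hist2h, Hist3h or Hist4h, and 58 remained after 3 rows with several symbols and 1 row with a pseudogene name were left out. Of the 58 genes, 48 belong to Hist1 on chromosome 13 (21715763 to 23934851, mm10), 8 to Hist2 on chromosome 3 (96219916 to 96279001), 1 to Hist3 on chromosome 11 and 1 to Hist4 on chromosome 6. By protein, 5 encode H1, 14 H2A, 17 H2B, 10 H3 and 12 H4. Levels were compared between 3 libraries of spermatids, the haploid cells that are remodelled into sperm, and 2 libraries of spermatocytes, the cells that pass through meiosis. Both came from male C57Bl/6 mice aged 12 weeks, with no allele or treatment named for either, and were separated by sedimentation at unit gravity (Sta-put), which sorts cells mainly by size. The labels do not say whether the libraries came from separate animals, so p-values measure the spread between these libraries, which may be technical.

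Most clustered histone genes are known as replication-dependent genes, transcribed strongly in S phase. Their mRNAs normally end in a conserved stem-loop that is bound by the stem-loop binding protein SLBP, in place of a poly(A) tail. Some members are also known to make polyadenylated transcripts in cells that no longer divide, and Hist1h1t (H1t), Hist1h2aa (TH2A) and Hist1h2ba (TH2B) are known as histones of the male germ line. Later in spermatid development most histones are removed from the DNA and replaced by transition proteins and then protamines. The libraries here were made from polyadenylated RNA, so the levels below are those of transcripts that such a preparation captures, and mRNAs that end at the stem-loop are not what such a preparation selects. A level in a bulk library cannot tell fewer cells of a type from less RNA per cell.

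The stem-loop was searched for on the transcript strand of the annotated 3' UTRs as an arm of 6 bases (GGNNCT), a loop of 4 bases (TTTN) and a second arm of 6 bases (AGNNCC). It was found for 36 of the 58 genes. For 13 of the 58 no 3' UTR is annotated, and those of Hist1h2af (1 base) and Hist1h2ah (2 bases) are shorter than the 16-base motif. In these genes the annotation could not show the stem-loop. Among 21028 coding genes with an annotated 3' UTR, 61 had it, and of the 25 that are not among the 58, 8 carry clustered histone symbols too, such as Hist1h1e, and 17 are other genes, H2afx and H2bfm among them. The forms are shown because the stem-loop is known from replication-dependent histone mRNAs. The arms of the stem are in capitals, and the genes that carry each form are named here. The search did not require the N bases of the arms to pair. A match does not show that a transcript ends there: the annotated 3' UTR runs on after it for 4884 bases in Hist1h1d and 2445 in Hist4h4. The most frequent form was in 19 genes and in every class but H4. The form with loop ttta was in 6 genes, Hist1h1t, Hist1h2bb, Hist1h2bk, Hist1h3c, Hist1h3e and Hist1h3f. A stem of GGCCCT with loop tttc was in 6 H4 genes, and the same stem with loop tttt was in Hist1h4i and Hist2h4. Hist1h4b and Hist1h4j shared a form with another stem, and Hist2h2ac had a form of its own.
most frequent form: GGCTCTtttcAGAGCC
Hist1h1t form: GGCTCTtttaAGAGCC
H4 form: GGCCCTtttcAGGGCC
Hist1h4i form: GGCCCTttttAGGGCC
Hist1h4b form: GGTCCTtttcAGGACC
Hist2h2ac form: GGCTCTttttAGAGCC

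Promoters, 250 bases before to 50 after the annotated start, were taken from RefSeq (GRCm38.p6, the assembly also named mm10). All 58 genes matched RefSeq by symbol or synonym, and 53 had a promoter sequence. Motifs were searched on both strands. The CCAAT box (CCAAT) was in 45 of the 53, 84.9%, against 37.4% of 32851 promoters: every H1, H2A, H2B and H3 promoter had it, and 3 of 11 H4 promoters. The letters of the TATA box (TATAAA, on the other strand TTTATA) were in 30, 56.6%, against 13.6% of all promoters. They were counted at any position: the match of Hist1h2bp begins 212 bases before the start on the other strand, and that of Hist1h4a 41 bases after it. The octamer (ATTTGCAT, on the other strand ATGCAAAT) was in 13, 24.5% against 1.74% of all promoters, of which 6 were among 14 H2A and 7 among 15 H2B promoters. The AC box of H1 genes (AAACACA, on the other strand TGTGTTT) was in 8, 15.1% against 7.18%, and in 4 of 5 H1 promoters. The cAMP response element (TGACGTCA, the same on both strands), searched for after it was seen in the promoter of Hist1h4a, was in 4 members, 7.55%, against 1.79% of all promoters. Hist1h4a is counted among these 4, and Hist1h2ag and Hist1h2bj carry the same site. The comparison was therefore partly set by the choice of motif. None of these motifs contains another, and a match describes the letters only. Promoters on both sides of a shared start region overlap, such as those of Hist1h2ag and Hist1h2bj, which share 252 bases.

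The promoters below belong to genes that the results turn on: Hist1h4a (chr13:23761200-23761499, minus strand), Hist1h1a (chr13:23763418-23763717, plus strand), Hist1h2ag (chr13:22042900-22043199, minus strand), Hist1h2bp (chr13:21787238-21787537, plus strand), Hist2h2ac (chr3:96220831-96221130, minus strand), Hist1h1t (chr13:23695561-23695860, plus strand) and Hist1h2aa (chr13:23934187-23934486, plus strand). Each runs 5' to 3' on the strand of its gene, with matches to the 5 motifs in capitals. The promoter of Hist1h4a holds TGACGTCA at 2 places, beginning 98 and 34 bases before the annotated start, and its TATAAA begins 41 bases after that start. The promoter of Hist1h2ag holds 1 TGACGTCA and 5 CCAAT boxes.
Hist1h4a promoter: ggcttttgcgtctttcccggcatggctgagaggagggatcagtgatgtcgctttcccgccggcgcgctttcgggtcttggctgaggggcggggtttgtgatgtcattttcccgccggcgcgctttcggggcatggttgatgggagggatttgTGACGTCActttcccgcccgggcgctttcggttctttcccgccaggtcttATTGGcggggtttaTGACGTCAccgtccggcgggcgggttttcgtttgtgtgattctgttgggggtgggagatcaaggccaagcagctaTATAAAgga
Hist1h1a promoter: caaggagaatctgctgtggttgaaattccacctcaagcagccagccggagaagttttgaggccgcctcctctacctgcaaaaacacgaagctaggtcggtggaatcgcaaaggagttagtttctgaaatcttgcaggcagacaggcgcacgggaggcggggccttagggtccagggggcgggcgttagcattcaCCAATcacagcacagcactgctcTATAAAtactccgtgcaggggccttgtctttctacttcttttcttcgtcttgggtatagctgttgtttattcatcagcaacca
Hist1h2ag promoter: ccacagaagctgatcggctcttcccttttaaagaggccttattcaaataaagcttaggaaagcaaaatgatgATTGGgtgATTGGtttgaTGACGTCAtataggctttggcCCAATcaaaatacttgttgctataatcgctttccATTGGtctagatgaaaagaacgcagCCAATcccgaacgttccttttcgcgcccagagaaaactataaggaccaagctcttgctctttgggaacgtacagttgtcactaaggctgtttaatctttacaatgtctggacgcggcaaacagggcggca
Hist1h2bp promoter: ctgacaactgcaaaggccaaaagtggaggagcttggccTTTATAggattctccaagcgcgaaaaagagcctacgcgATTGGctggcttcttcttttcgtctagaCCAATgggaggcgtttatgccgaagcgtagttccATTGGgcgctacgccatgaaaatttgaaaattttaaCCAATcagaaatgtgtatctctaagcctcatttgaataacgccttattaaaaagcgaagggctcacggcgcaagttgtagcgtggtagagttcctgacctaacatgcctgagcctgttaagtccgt
Hist2h2ac promoter: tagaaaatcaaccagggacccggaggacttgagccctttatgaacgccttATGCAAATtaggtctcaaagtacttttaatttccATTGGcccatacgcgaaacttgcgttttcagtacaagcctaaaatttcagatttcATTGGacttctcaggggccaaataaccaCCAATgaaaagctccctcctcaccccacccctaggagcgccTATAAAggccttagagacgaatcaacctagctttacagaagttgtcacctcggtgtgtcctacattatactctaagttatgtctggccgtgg
Hist1h1t promoter: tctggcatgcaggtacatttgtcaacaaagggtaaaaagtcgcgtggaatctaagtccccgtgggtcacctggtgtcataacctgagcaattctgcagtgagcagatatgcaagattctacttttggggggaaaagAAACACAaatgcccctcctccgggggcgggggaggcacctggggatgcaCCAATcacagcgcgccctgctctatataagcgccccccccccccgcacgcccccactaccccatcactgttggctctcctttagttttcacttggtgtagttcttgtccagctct
Hist1h2aa promoter: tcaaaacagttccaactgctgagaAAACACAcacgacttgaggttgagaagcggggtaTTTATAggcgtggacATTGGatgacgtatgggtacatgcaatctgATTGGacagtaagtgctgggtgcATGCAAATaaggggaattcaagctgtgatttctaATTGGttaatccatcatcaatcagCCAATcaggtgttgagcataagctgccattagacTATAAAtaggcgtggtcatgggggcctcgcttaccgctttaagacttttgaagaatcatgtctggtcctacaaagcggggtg

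Of the 58 genes, 30 had a mean normalized count of at least 10 over the 5 libraries and were tested. A normalized count is a gene's read count divided by a size factor for its library. The other 28 had means of 1.11 to 9.99, and their highest value in any library was 31.7, for Hist1h2ai in spermatid replicate 2. Hist1h1b, the H1.5 gene, had no read in any spermatid library, against 6.46 and 1.34 in spermatocytes, and Hist1h2bn, Hist1h3g and Hist1h4j had no read in either spermatocyte library. No gene was at 0 throughout. Just outside the threshold were Hist1h2ab (mean 9.62), Hist1h2ai (9.96) and Hist1h3i (9.99), and just inside it Hist1h2bg (10.1), Hist3h2ba (10.1) and Hist1h3f (10.9).

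Spermatid replicate 1 stood apart from the other spermatid libraries in the summed level of the 10 spermatid markers. The sum was 2446640 there, against 925202 and 879413 in spermatid replicates 2 and 3, and 19181 to 26068 in spermatocytes. Not all of the markers differed in this way. Acrv1 had 27002, 30144 and 26452 in spermatid replicates 1, 2 and 3, and Spaca1 had 24594, 27604 and 22896. The other markers of the list, such as Prm2 with 583221 against 140587 and 140411, were highest in replicate 1. Spermatid replicate 1 also had the lowest sum over the 58 genes among the spermatid libraries, the lowest Hist2h2aa2 value and no read of Hist1h2ah. Its part in the results was not tested beyond leaving it out, which gave 13 genes higher and 8 lower in spermatids and a log2 fold change of 3.04 for Hist2h2aa2.

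Among the 30 tested genes, 13 were higher and 7 lower in spermatids, and 10 did not pass the test (limma, Benjamini-Hochberg adjusted p under 0.05 over all genes). The share called was 66.7%, and that of all 28370 genes tested was 77.1%, with 40.6% higher and 36.5% lower in spermatids, so the family was not called more often than genes in general. For 21 of the 30, the spermatid and spermatocyte values were fully apart, against 85.8% of all genes tested. The median log2 fold change was 0.53 in the family, with a range of -3.53 to 6.55, and 0.07 over all genes. When libraries were scaled to equal totals, a setting that takes the median of all genes to -0.57, the split was 11 higher and 11 lower. By class, the tested genes that were higher, and those that were lower, numbered 3 and 1 of 4 for H1, 4 and 0 of 9 for H2A, 2 and 4 of 8 for H2B, 3 and 0 of 3 for H3, and 1 and 2 of 6 for H4.

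**Figure D1:**
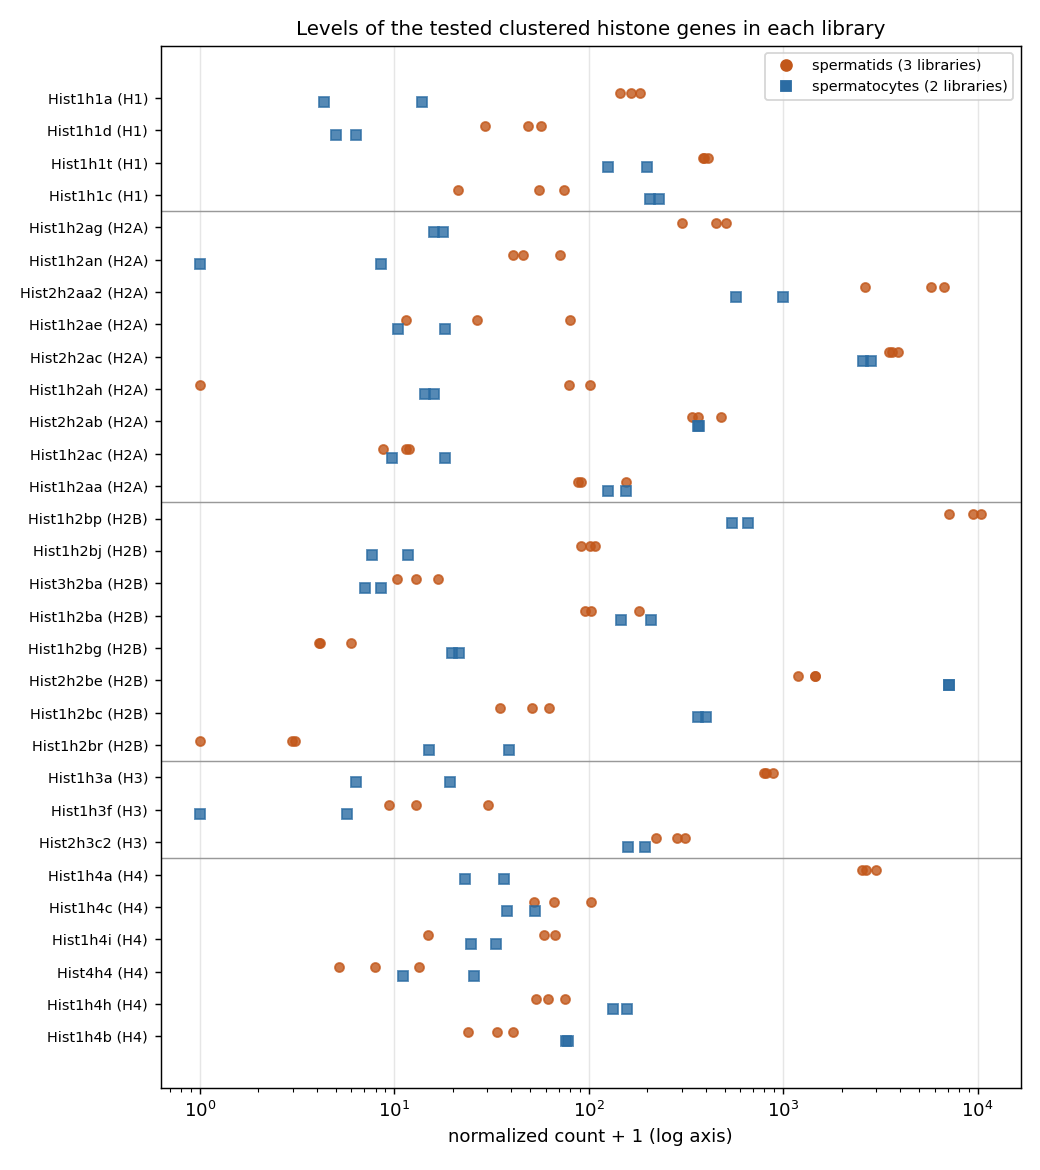
Normalized count plus 1 on a log axis for the 30 tested clustered histone genes, grouped by class, with 1 point per library (circles for 3 spermatid libraries, squares for 2 spermatocyte libraries). Hist1h4a and Hist1h3a lie far apart between the groups with spermatids above, Hist2h2be and Hist1h2bc with spermatids below, and Hist1h2aa, Hist2h2ab and Hist1h2ba overlap between the groups.

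**Figure D2:**
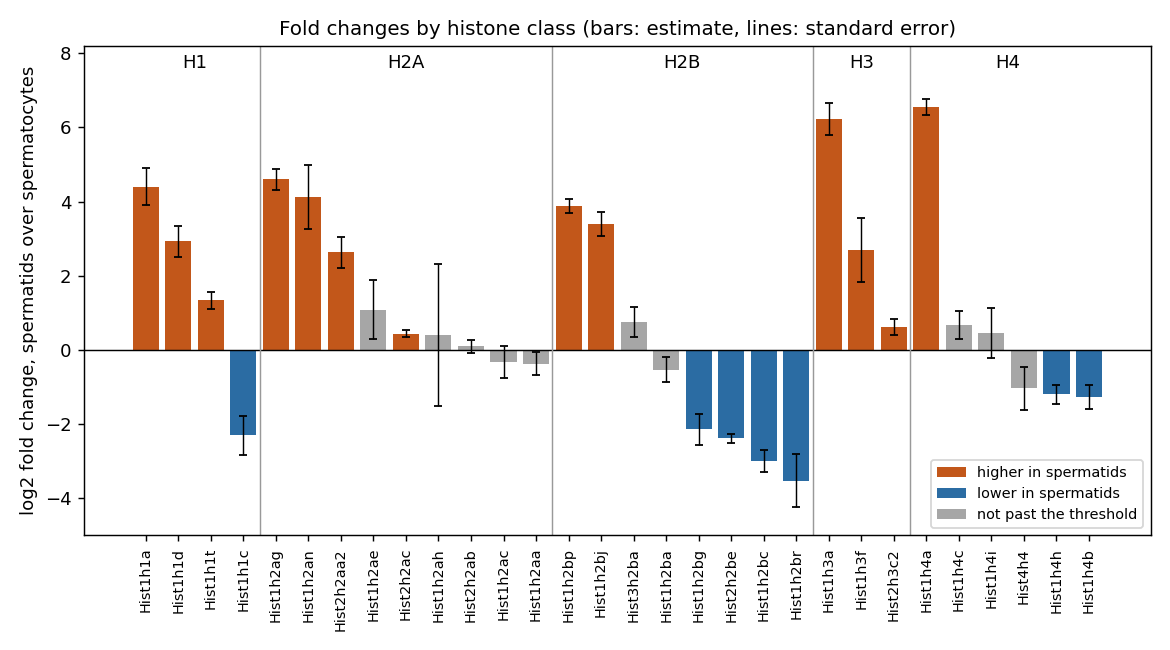
Log2 fold change, spermatids over spermatocytes, of the 30 tested genes by class, with bars for the estimate and lines for its standard error. Estimates run from -3.53 for Hist1h2br to 6.55 for Hist1h4a, and genes of both directions occur in the H1, H2B and H4 classes.

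The largest difference of the family was in an H4 gene. Hist1h4a had 2660, 2992 and 2545 normalized counts in spermatids, against 35.5 and 22.1 in spermatocytes. All 3 spermatid libraries were far above both spermatocyte libraries, with a mean 94.8-fold higher and a log2 fold change of 6.55 ± 0.22 (SE; limma adjusted p = 8.5e-07). The genes next to it on the chromosome did the same. Hist1h3a, which encodes H3, had 795, 889 and 812 in spermatids and 18.3 and 5.36 in spermatocytes, 70.3-fold higher (log2 6.23 ± 0.44, adjusted p = 2.2e-05). Hist1h1a, the gene of H1.1, a linker histone known from thymus, spleen and testis, had 144, 183 and 165 in spermatids and 12.9 and 3.35 in spermatocytes, 20.2-fold higher (log2 4.40 ± 0.50, adjusted p = 0.0002). The spermatid values of both stood clear above the spermatocyte values.

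These 3 genes lie within 3723 bases of each other, at chromosome 13, 23760692 to 23764414. The level of each in spermatocytes was 1.06% to 4.96% of its level in spermatids, and the defining spermatid markers, such as Prm1 and Tnp1, were at 1.27% to 1.996%. The part of spermatid RNA in the spermatocyte libraries was not tested. Hist1h4a has a poly(A) signal 29 bases before its annotated end and no stem-loop, and 59.6% of its 50-base windows matched no other transcript. Hist1h3a has a stem-loop and no poly(A) signal, with 50.5% of its windows unique, and the short annotated end of Hist1h1a holds neither, with 100% unique.

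Genes beyond this stretch were called in both directions. Hist1h4b, the nearest tested histone gene on that side, was lower in spermatids, with 32.6, 22.8 and 39.8 against 75.4 and 77.1 in spermatocytes (log2 -1.27 ± 0.33, adjusted p = 0.011), a call lost when either spermatocyte library was left out. It lies inside the non-histone row 4930558J22Rik, itself lower in spermatids (mean 75.2 against 528.7, log2 -2.85), and reads of the overlap cannot be told apart without the strand setting of the counting. On the other side, 4 tested genes that were looked at after the values were seen were higher in spermatids: Trim38 (mean 632 against 15.6 in spermatocytes), and the transporter genes Slc17a2 (114 against 3.09), Slc17a3 (55.6 against 0.671) and Slc17a1 (113 against 4.17). In all, 24 rows of other genes were tested inside the Hist1 span or within 20000 bases of it, of which 13 were higher and 7 lower in spermatids. Among all genes tested, 40.6% were higher and 36.5% lower.

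**Figure D3:**
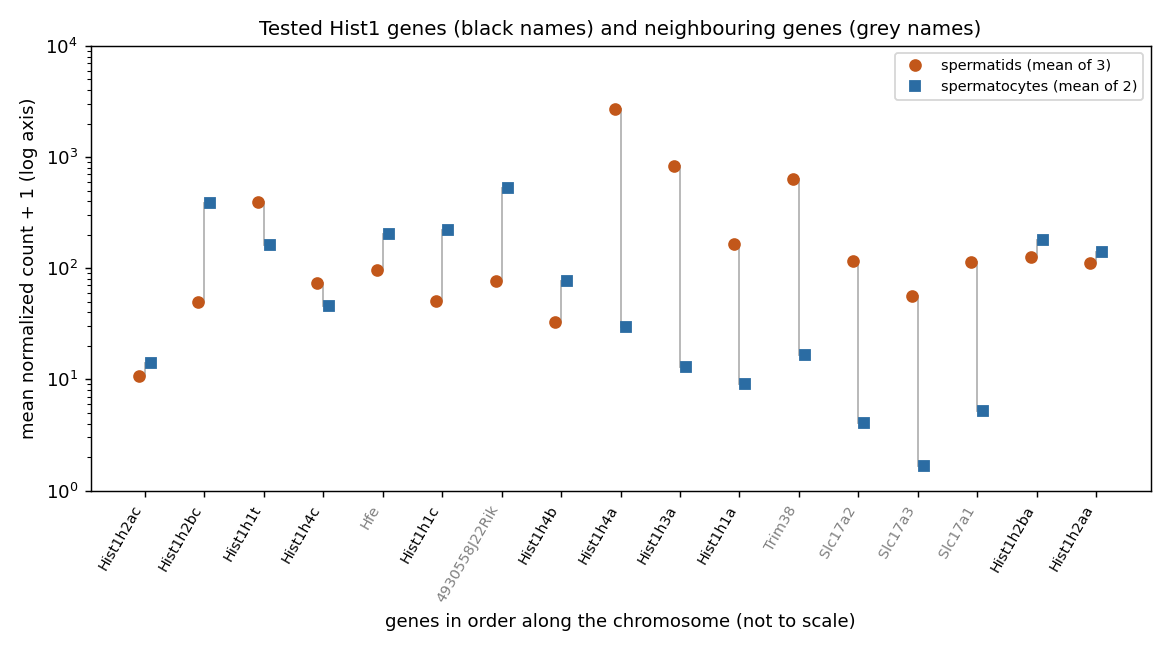
Mean normalized count plus 1 on a log axis for the tested genes around Hist1h4a in chromosomal order, not to scale, with circles for spermatids and squares for spermatocytes. Spermatids lie above spermatocytes from Hist1h4a to Slc17a1 and below them at Hist1h4b, Hist1h1c and the last 2 genes, Hist1h2ba and Hist1h2aa, whose difference did not pass the test.

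The other H1 genes moved both ways. Hist1h1t, the gene of the testis linker histone H1t, which is known from pachytene spermatocytes on, had 388, 391 and 411 in spermatids, against 197 and 124 in spermatocytes. It was 2.47-fold higher in spermatids (log2 1.34 ± 0.22, adjusted p = 0.0013) and had no window shared with another transcript. The gene lies at chromosome 13, 23695811 to 23696725, on the plus strand, and its annotated 3' UTR holds both a stem-loop and a poly(A) signal. Hist1h1d (H1.3) had 55.8, 47.6 and 28.3 in spermatids and 5.39 and 4.02 in spermatocytes (log2 2.93 ± 0.42, adjusted p = 0.00063), and its row overlaps another row of the table. Hist1h1c (H1.2) was the only tested H1 gene that was lower in spermatids, with 20.2, 73.3 and 54.5 against 206 and 230 in spermatocytes (log2 -2.30 ± 0.53, adjusted p = 0.0059), a call lost when either spermatocyte library was left out.

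Of the H2A genes, 4 rose and none passed the test in the other direction. Hist1h2ag had 299, 508 and 453 in spermatids, against 15.1 and 16.8 in spermatocytes, 26.4-fold higher (log2 4.60 ± 0.28, adjusted p = 1.2e-05). Hist1h2an had 45.0, 39.6 and 70.2 in spermatids and 7.54 and 0 in spermatocytes (log2 4.13 ± 0.87, adjusted p = 0.0041). Both sit in families of near-identical copies: 21.1% of the windows of Hist1h2ag and 14.2% of those of Hist1h2an were unique, so reads may be split or shared among H2A genes. Hist2h2aa2 had 2642, 5733 and 6731 in spermatids and 995 and 570 in spermatocytes (log2 2.63 ± 0.42, adjusted p = 0.0011). None of its windows was unique, its sequence being shared in full with Gm20632. Its row overlaps an unnamed row with 6025, 9550 and 8332 in spermatids and 3741 and 3322 in spermatocytes (log2 1.15). The level of Hist2h2aa2 is uncertain for these reasons. A left-out row with several symbols, Hist2h2aa1 with Hist2h3c1, had means of 3349 in spermatids and 3065 in spermatocytes. It was not called (log2 0.12). Hist2h2ac had 3609, 3872 and 3496 in spermatids and 2837 and 2568 in spermatocytes. This small difference, log2 0.44 ± 0.10 (adjusted p = 0.0058), changed sign to -0.21 under equal library totals and to -0.13 under quantile normalization, and its call was lost without spermatocyte replicate 2.

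The testis forms of H2A and H2B did not pass the test with all 5 libraries. Hist1h2aa (TH2A) had 155, 90.2 and 87.0 in spermatids and 155 and 125 in spermatocytes (log2 -0.38 ± 0.31, adjusted p = 0.30). Hist1h2ba (TH2B) had 94.6, 101 and 179 in spermatids and 208 and 146 in spermatocytes (log2 -0.54 ± 0.34, adjusted p = 0.18). The groups overlapped for both genes, which start 306 bases apart in opposite directions and have no annotated 3' UTR. Single libraries and the scaling decided this: Hist1h2aa was lower past the threshold without spermatid replicate 1 (log2 -0.65) and under equal library totals (log2 -1.02), and Hist1h2ba without spermatid replicate 3 (log2 -0.83), under equal totals (log2 -1.18) and under quantile normalization (log2 -0.96). Both rows overlap another row. Among the remaining H2A genes, Hist2h2ab had 363, 478 and 340 in spermatids and 367 and 363 in spermatocytes, so its values overlapped (log2 0.09 ± 0.19, adjusted p = 0.67), and it was lower past the threshold under equal library totals (log2 -0.55). Hist1h2ah had 0, 78.3 and 101 in spermatids and 15.1 and 13.4 in spermatocytes, with the spermatid libraries on both sides of the spermatocyte ones (log2 0.40 ± 1.91, adjusted p = 0.86). Without spermatid replicate 1, the library at 0, it was higher in spermatids (log2 2.56). Hist1h2ae (log2 1.08 ± 0.80) and Hist1h2ac (log2 -0.33 ± 0.44) did not pass either.

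The H2B class held large differences in both directions. Hist1h2bp, an H2B gene of Hist1, had 7124, 10458 and 9426 in spermatids, against 661 and 546.5 in spermatocytes, 14.9-fold higher (log2 3.88 ± 0.18, adjusted p = 3.2e-06). Of its windows 55.9% were unique, and it has transcripts with a stem-loop and with a poly(A) signal. Hist1h2bj had 89.9, 107 and 101 in spermatids and 10.8 and 6.71 in spermatocytes, 11.4-fold higher (log2 3.39 ± 0.32, adjusted p = 8.6e-05). In both genes every spermatid library was above both spermatocyte libraries.

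Hist2h2be went the other way. It encodes a variant H2B known from mouse olfactory neurons, and it had 1459, 1195 and 1456 in spermatids, against 7162 and 7114 in spermatocytes, 5.21-fold higher in spermatocytes (log2 -2.39 ± 0.12, adjusted p = 4.6e-06). All its windows were unique, and its long 3' UTR holds a poly(A) signal and no stem-loop. Hist1h2bc had 34.1, 61.4 and 50.3 in spermatids and 365 and 400 in spermatocytes (log2 -2.99 ± 0.29, adjusted p = 9.9e-05). Hist1h2br had 0, 1.98 and 2.10 in spermatids and 37.7 and 14.1 in spermatocytes (log2 -3.53 ± 0.70, adjusted p = 0.0031), with 88.7% of its windows shared with Hist1h2bq, and Hist1h2bg had 3.10, 4.96 and 3.14 in spermatids and 20.5 and 18.8 in spermatocytes (log2 -2.14 ± 0.41, adjusted p = 0.0026). The only Hist3 member, Hist3h2ba, had 9.30, 11.9 and 15.7 in spermatids and 7.54 and 6.03 in spermatocytes, without overlap, but did not pass the test (log2 0.75 ± 0.41, adjusted p = 0.14).

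Markers of Sertoli cells, the somatic cells that nurse the germ cells, moved in the same direction as the 7 genes that were lower in spermatids. Of 17 such markers 16 were lower in spermatids and 1 higher, their summed level was 2549 to 3248 in spermatids against 68023 to 89483 in spermatocytes, and none was at 0 in either group. Of 8 Leydig cell markers 7 were tested and all 7 were lower in spermatids, with sums of 163 to 368 against 3176 to 3933 in spermatocytes. Markers of other somatic cells (endothelium, muscle, macrophages, blood, fibroblasts) went the other way, with 8 higher and 1 lower in spermatids of 13 tested, and sums of 3955 to 4821 in spermatids against 744 to 799 in spermatocytes. Of 15 tested spermatogonia markers 7 were higher and 3 lower in spermatids, with sums of 34858 to 39092 in spermatids against 35854 to 39758 in spermatocytes. Most of each sum was Dmrtb1, which was not called, with means of 32955 in spermatids and 32021 in spermatocytes. Over the list, the median marker had a spermatocyte level 44.5% of its spermatid level, so the sums do not speak for the other markers. The part of other cells in the levels of Hist2h2be, Hist1h2bc, Hist1h1c and the others was not tested. Markers of the labelled cells were also compared: all 10 spermatid markers were higher in spermatids, and of 8 spermatocyte markers 4 were lower and 1 higher in spermatids, with sums of 47928 to 62726 in spermatids against 77582 to 87079 in spermatocytes.

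All 3 tested H3 genes were higher in spermatids, Hist1h3a by far the most. Hist2h3c2 had 312, 283 and 221 in spermatids and 157 and 194 in spermatocytes, without overlap (log2 0.62 ± 0.22, adjusted p = 0.034). Its call was lost without spermatid replicate 1 or 2 or either spermatocyte replicate, and its estimate was -0.023 under equal library totals. Hist1h3f, near the filter, had 29.5, 11.9 and 8.38 in spermatids and 0 and 4.69 in spermatocytes (log2 2.69 ± 0.86, adjusted p = 0.025), and its call was lost without spermatid replicate 1 or 2 or spermatocyte replicate 1. Among H4 genes, Hist1h4h had 60.5, 74.3 and 52.4 in spermatids and 156 and 132 in spermatocytes, all lower (log2 -1.20 ± 0.26, adjusted p = 0.0044). Hist1h4c (log2 0.67 ± 0.37) and Hist1h4i (log2 0.44 ± 0.67) did not pass. Hist4h4, the only Hist4 member, had 12.4, 6.94 and 4.19 in spermatids and 24.8 and 10.1 in spermatocytes, with overlap (log2 -1.04 ± 0.59, adjusted p = 0.14).

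Within each class, the gene with the highest mean differed between the cell types. These shares are of normalized counts and are not corrected for transcript length. Of the H4 counts, Hist1h4a took 91.9% in spermatids, and Hist1h4h led in spermatocytes with 41.1%. Of the H3 counts, Hist1h3a took 72.6% in spermatids, and Hist2h3c2 82.1% in spermatocytes. Of the H2B counts, Hist1h2bp took 84.0% in spermatids, and Hist2h2be 85.1% in spermatocytes. Of the H2A counts, Hist2h2aa2 had 51.2% on the mean of spermatids, and Hist2h2ac had 66.4% in spermatocytes. In spermatid replicate 1 Hist2h2ac was above Hist2h2aa2, as in spermatocytes, and Hist2h2aa2 has no unique window. Of the H1 counts, Hist1h1t took 60.7% in spermatids, and Hist1h1c 55.1% in spermatocytes. Per kb of the longest annotated transcript, Hist1h1t was above Hist1h1c in spermatocytes too, with 176 against 140. The H1 difference in the leading gene therefore held for uncorrected counts only.

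The summed normalized counts of all 58 genes were 20687, 28076 and 27209 in spermatids, against 13958 and 12881 in spermatocytes. As CPM, relative to each library's total, the sums overlapped, with 214, 336 and 338 in spermatids and 245 and 239 in spermatocytes, so the order of the totals depended on the scaling. The H4 sum was 2973 ± 239.99 in spermatids (SD, n = 3) and 351 ± 46.4 in spermatocytes (SD, n = 2), and the H3 sum 1146 ± 72.4 in spermatids and 214 ± 14.9 in spermatocytes. The H2A sum was 9831 ± 2274 in spermatids and 4068 ± 534 in spermatocytes, the H2B sum 10720 ± 1645 in spermatids and 8392 ± 149.8 in spermatocytes, and the H1 sum 654 ± 44.2 in spermatids and 395 ± 45.9 in spermatocytes. No test was made of these sums.

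**Figure D4:**
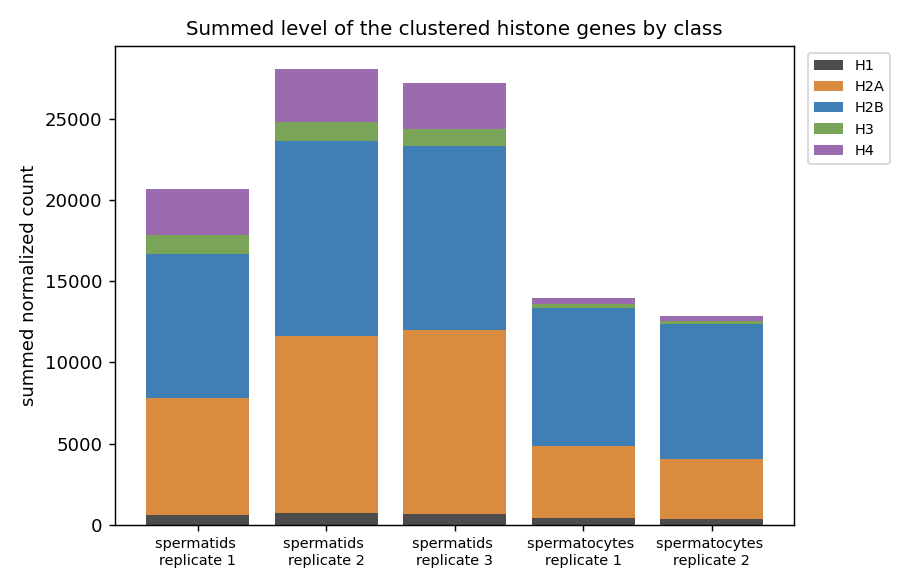
Summed normalized counts of the 58 genes by histone class in each library, as stacked bars from 0. The 3 spermatid bars reach 20687 to 28076 and the 2 spermatocyte bars 13958 and 12881, with H3 and H4 thicker in the spermatid bars.

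Per kb of the longest annotated transcript, the order of the genes was as follows. In spermatids Hist1h2bp was at the top with 14497 normalized counts per kb, then Hist2h2aa2 (9537), Hist2h2ac (7037), Hist1h4a (5069) and Hist1h3a (1558). In spermatocytes the top was Hist2h2ac (5197), then Hist2h2be (2724), Hist2h2aa2 (1482) and Hist1h2bp (972). Hist1h4a ranked 4 of 58 in spermatids and 15 in spermatocytes, Hist1h3a 5 and 20, and Hist2h2be 8 and 2. The level of Hist2h2aa2 carries the uncertainty given above.

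Set beside the annotated 3' ends, the calls were as follows, in small groups and with no test made. The groups record which elements the annotation holds, and not that a transcript ends at the stem-loop. In Hist1h1d and Hist1h2ac, with a stem-loop and no poly(A) signal, the annotation runs on for 4884 and 2010 bases after the loop. Of 12 tested genes with a stem-loop and no poly(A) signal in the last 50 bases, 8 were higher and 2 lower in spermatids. Their median log2 fold change was 1.65. The share higher was 66.7% in this group, 43.3% of all tested members and 40.6% of all genes tested. Among the 8 higher genes, Hist1h3f, Hist2h2ac and Hist2h3c2 lost their call under some settings, and Hist2h2aa2 had no unique window. The share higher therefore rests in part on calls that were not stable. Of 8 tested genes with both a stem-loop and a poly(A) signal, 2 were higher and 2 lower. Of the 3 with a poly(A) signal and no stem-loop, Hist1h4a was higher, and Hist2h2be and Hist1h2br were lower. Among the 4 tested genes with no annotated 3' UTR 1 was higher, and among the 3 with neither element 1 was higher and 1 lower. Hist1h2ah, of the last group, has an annotated 3' UTR of 2 bases, too short for either element. Shared sequence was set beside the calls in the same way, again with no test. Of 10 tested genes with at least 75% of windows unique 3 were higher and 2 lower, and of 6 with under 25% unique 3 were higher and 2 lower.

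H2A and H2B genes often stand head to head, and 10 pairs of members start within 1000 bases of each other in opposite directions, 176 to 660 bases apart. Of these pairs 6 had both genes tested and 3 had both called. Hist1h2ag with Hist1h2bj, 270 bases apart, and Hist1h2an with Hist1h2bp, 243 bases apart, were higher in spermatids on both sides. Hist2h2ac with Hist2h2be, 239 bases apart, went opposite ways, with Hist2h2ac higher and Hist2h2be lower in spermatids. Hist1h2ac with Hist1h2bc, and Hist1h2ae with Hist1h2bg, had the H2B gene lower and the H2A gene not past the test.

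Set beside the calls, the promoter motifs shown above were distributed as follows, in small groups and with no test made. Among all genes tested, 40.6% were higher and 36.5% lower in spermatids. Of the H2A and H2B genes with the octamer, 7 were tested, of which Hist2h2ac was higher and Hist1h2bg lower in spermatids. Of those without it, 8 were tested, of which 5 were higher (Hist1h2ag, Hist1h2an, Hist2h2aa2, Hist1h2bj and Hist1h2bp) and Hist1h2br was lower. Few windows were unique in Hist2h2aa2 (0%), Hist1h2an (14.2%), Hist1h2ag (21.1%) and Hist1h2br (11.3%), so their reads may be shared with other genes. Hist2h2be and Hist1h2bc, both lower in spermatids, had no promoter sequence and are in neither count. Genes in these counts are not all separate promoter regions. Without the octamer, the promoters of Hist1h2ag and Hist1h2bj share 252 bases and those of Hist1h2an and Hist1h2bp 261. With it, those of Hist1h2aa and Hist1h2ba share 220. The 4 genes with TGACGTCA were all tested: Hist1h4a, Hist1h2ag and Hist1h2bj were higher and Hist1h4h lower in spermatids. Hist1h2ag and Hist1h2bj share 1 site, 160 bases before the start of Hist1h2ag and 96 before that of Hist1h2bj. The motif was searched for after it was seen in Hist1h4a, so the call of that gene is not separate from the choice of motif. The AC box was in every H1 promoter but that of Hist1h1a, the H1 gene with the largest fold change.

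Of 23 tested genes that act in the synthesis and 3' processing of histone mRNA, 7 were higher and 10 lower in spermatids (median log2 fold change -0.24). The share called was 73.9%, against 77.1% of all genes tested. Slbp, which binds the stem-loop, had 5004 ± 211 normalized counts in spermatids (SD, n = 3) and 6910 ± 353 in spermatocytes (SD, n = 2), and was lower in spermatids (log2 -0.47 ± 0.09, adjusted p = 0.0027). Sympk, the scaffold of the 3' cleavage complex, had 24074 ± 1108 in spermatids and 11366 ± 176 in spermatocytes, and was higher in spermatids (log2 1.08 ± 0.08). Ncbp1, a subunit of the nuclear cap-binding complex, had 23248 ± 1318 in spermatids and 18525 ± 799.6 in spermatocytes (log2 0.33 ± 0.09, adjusted p = 0.013).

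Of 31 tested rows of histone chaperone genes, 7 were higher and 12 lower in spermatids (median -0.17). The share called was 61.3%, below the 77.1% of all genes tested. Nasp, a chaperone of H1 and of H3 with H4, had 81868 ± 5757 in spermatids and 92244 ± 6604 in spermatocytes and did not pass the test (log2 -0.17 ± 0.10, adjusted p = 0.15). Ipo4, which carries H3 with H4 into the nucleus, had 66763 ± 2177 in spermatids and 32436 ± 949 in spermatocytes (log2 1.04 ± 0.08, higher in spermatids). Of 35 DNA replication and S phase genes, 11 were higher and 10 lower in spermatids (60% called, median -0.09), also below the share of all genes. Rrm1, a subunit of ribonucleotide reductase, had 13409 ± 3904 in spermatids and 14848 ± 2045 in spermatocytes and did not pass the test, and Mcm7, of the replicative helicase, had 11707 ± 271 in spermatids and 6260 ± 276 in spermatocytes (log2 0.90, higher in spermatids).

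Replacement histone genes have symbols that are not of the cluster type, and most are known to make polyadenylated mRNA. Of 16 tested, 14 were called, 87.5% against 77.1% of all genes tested, with 7 in each direction (median -0.26). Among the linker histones of spermatids, H1fnt had 61518 ± 23257 in spermatids and 793 ± 216 in spermatocytes (log2 6.24), and Hils1 58854 ± 6502 in spermatids and 910.5 ± 111 in spermatocytes (log2 6.01). With equal totals or quantile normalization, more genes of the synthesis, chaperone and S phase lists were lower in spermatids than given above.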

How the data were processed

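Polyadenylated RNA was sequenced with a stranded kit, per the labels' protocols. The authors deposited 1 normalized signal per gene and library, gene counts divided by DESeq size factors (per the file headers and processing notes of the submitters, which also name STAR 2.4.0 and mm10). The counting program, its strand setting and its handling of multiply matching reads were not given in the sources used here. Within 0.001, 100% of values were whole multiples of their column's smallest value, and the recovered totals were 52784231 to 84361908 reads per library. In spermatid replicate 2, the library with the most reads, 1 read is worth 0.991, so near 1 that its reads and deposited values are almost alike. Reads are not independent molecules, and arithmetic on them covers counting error only.

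Rows with a mean of at least 10 were tested with limma 3.58.1 (R 4.3.3, eBayes with trend) on log2(value + 1), a scale that understates the change of low genes, with Benjamini-Hochberg adjustment over 28370 rows. The fit was also run on simulated counts, with far fewer changed genes than were called here, a fixed spread between libraries and known size factors. That setting differs from these data, so the run does not bear on the calls. On recovered reads, edgeR 4.0.16 called 21931 genes and DESeq2 1.42.0 called 21759, against 21871 with limma. Other pseudocounts, filters, scalings and left-out libraries were also tried. Transcript ends and 50-base windows came from GENCODE, and promoters from RefSeq.

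The members and gene lists were chosen with earlier results of these data known. Named members were the 4 known from testis, the 2 with the highest mean in each class, those with the largest called changes, up to 6 in each direction, where the higher group averaged at least 50 (6 higher and 5 lower), and all of Hist3 and Hist4. From each other list the 2 genes with the highest mean were named, with Slbp. Further members and neighbouring genes were named after their values were seen. Groups follow the cell type labels, and replicate numbers follow accession order only.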

Additional observations from a re-analysis of the deposited data

How the results depend on the processing

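Of the 13 clustered histone genes called higher in spermatids, 10 kept call and direction under every alternative that tested them, and of the 7 lower genes 5 did. With edgeR, DESeq2, TMM factors, other pseudocounts and robust eBayes the counts stayed at 13 higher and 7 lower. Lower genes numbered 11 under equal library totals and 3 with a mean of at least 100. Leaving out each replicate gave 11 to 13 higher and 5 to 8 lower. The log2 fold change of 6 genes turned its sign: Hist2h2ac to -0.21 (equal totals) and -0.13 (quantile), Hist2h3c2 to -0.023 and Hist1h4i to -0.18 (equal totals), Hist2h2ab to -0.55 (equal totals), -0.34 (quantile) and -0.058 (without spermatid replicate 2), Hist1h2ah to -0.10 (equal totals), -0.59 and -0.77 (without spermatid replicate 2, and 3), and Hist1h2ac to 0.13 (without spermatocyte replicate 1). Over the left-out replicates Hist2h2ab ran from -0.058 to 0.19, Hist1h2ah from -0.77 to 2.56 and Hist1h2ac from -0.78 to 0.13. Equal totals and quantile normalization take the median of all genes to -0.57 and -0.39, against 0.07. Other causes were not tested.

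Hist1h2aa, Hist1h2ah and Hist1h4i were called without spermatid replicate 1, and Hist1h2ba without spermatid replicate 3 and under quantile normalization. Hist1h2aa, Hist1h2ba and Hist4h4 were called under equal totals, and Hist3h2ba under quantile normalization and eBayes without trend. Calls of Hist1h1c and Hist1h4b were lost without either spermatocyte replicate, that of Hist2h2ac without spermatocyte replicate 2, and that of Hist2h3c2 under quantile normalization and without spermatid replicate 1 or 2 or either spermatocyte replicate. For mRNA synthesis and processing genes, 4 were higher with quantile normalization, and 16 lower with it and with equal totals. For chaperones, 4 were higher with quantile normalization, and 19 lower with it and 22 with equal totals. For S phase genes, 6 were higher with equal totals, and 17 lower with it and 16 with quantile normalization. Leaving out each replicate gave 6 to 7 higher and 8 to 11 lower for synthesis and processing, 7 to 8 and 11 to 14 for chaperones, 6 to 7 and 5 to 8 for replacement histones, and 10 to 14 and 7 to 10 for S phase genes. With 2 spermatocyte libraries, genes near the filter rest on few reads. No paired analysis was possible because the replicate numbers were given in accession order and pair no libraries.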
